A study of Mus musculus with 12 samples.

Results

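The genes described here are 10 markers of the muscle cells that wrap blood vessels, in 2 fat depots of the mouse, inguinal white fat (WAT) and brown fat (BAT). They were chosen by name and found through their Ensembl IDs, and all 10 were present among the 52550 gene IDs of the count table. Acta2, Myh11, Tagln, Cnn1 and Lmod1 encode contractile proteins of smooth muscle. Rgs5, Notch3, Mcam, Kcnj8 and Abcc9 mark pericytes and other mural cells. RNA was sequenced from 12 libraries, 3 in each of 4 groups. Control animals were Mcu fl/fl mice, in which Mcu, the pore subunit of the mitochondrial calcium uniporter, carries loxP sites. The other animals were Mcu fl/fl AKO mice, lacking Mcu specifically in adipose tissue. All animals ate a high-fat diet according to the series' design text, which sets the 2 genotypes side by side within each depot. The sources used here do not give age, sex, the promoter that drives Cre or the deleted exon. Replicate numbers are given, but not whether 2 libraries of a group are 2 animals, and p-values therefore measure the spread between libraries.

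Mural cells sit on the outer face of the endothelial tube. Smooth muscle cells ring arteries, arterioles and larger veins and shorten through smooth muscle actin and myosin, whereas pericytes lie along capillaries and are anchored there by platelet-derived growth factor from the endothelium. Contractile genes of this lineage are switched on by serum response factor (Srf) with its myocardin-family partners through the CArG box, and Notch3, bound by Jag1 on endothelium, acts on mural genes through the DNA-binding protein Rbpj. Tone is set by calcium entry and opposed by potassium efflux, which Kcnj8 and Abcc9 provide together as the pore and the regulatory subunit of the vascular ATP-sensitive potassium channel.

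The RefSeq table (GRCm38.p6, the build of the mm10 coordinates used here) held promoters of 8 of the 10 genes; Myh11 and Tagln had no entry. The 250 bases upstream of each RefSeq start were searched on both strands for the CArG box, for CATTCC, the MCAT element bound by TEAD factors, and for TGGGAA, the core letters bound by Rbpj. No window held an exact CArG box, which 1.47% of all 32851 promoter windows held. With at most 1 G or C allowed in its core, the box was found in Acta2 at 84 and 34 bases upstream, and in 8.59% of all windows. CATTCC was found in Acta2, Lmod1 and Abcc9 and in 12.6% of all windows, and TGGGAA in Acta2 and Abcc9 and in 21.6%. A match describes the letters of a window and says nothing of binding. These sites are shown because Acta2 is the contractile gene that differed most between the depots in controls. Of its window, 217 bases lie in annotated exons, so short sites are printed, and the capitals mark the matched element, with lower-case letters flanking it on the gene's own strand.
Acta2, CArG-like, chr19:34255438-34255467, minus strand: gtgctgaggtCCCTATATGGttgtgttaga
Acta2, CArG-like, chr19:34255388-34255417, minus strand: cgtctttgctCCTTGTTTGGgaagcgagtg
Acta2, CATTCC on the opposite strand, chr19:34255502-34255531, minus strand: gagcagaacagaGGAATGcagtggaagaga
Lmod1, CATTCC on the opposite strand, chr1:135324671-135324700, plus strand: ccaagattccctGGAATGtcctcaagtttc
Abcc9, CATTCC on the opposite strand, chr6:142702476-142702505, minus strand: tggtcctgaatgGGAATGgccggagtgatg
The TGGGAA of Acta2 overlaps the end of its second CArG-like site, and that of Abcc9 overlaps its CATTCC element. The Rgs5, Notch3 and Kcnj8 windows held none of these elements, nor did those of Cnn1 and Mcam. The windows of Rgs5, Notch3 and Kcnj8 overlap no annotated exon and are printed in full, because these 3 genes deviated together across libraries.
Rgs5, chr1:169655251-169655500, plus strand: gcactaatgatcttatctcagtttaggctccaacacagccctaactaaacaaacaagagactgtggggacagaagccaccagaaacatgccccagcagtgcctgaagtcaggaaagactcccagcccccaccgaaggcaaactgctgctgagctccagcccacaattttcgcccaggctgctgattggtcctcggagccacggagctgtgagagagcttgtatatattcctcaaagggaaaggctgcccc
Notch3, chr17:32166891-32167140, minus strand: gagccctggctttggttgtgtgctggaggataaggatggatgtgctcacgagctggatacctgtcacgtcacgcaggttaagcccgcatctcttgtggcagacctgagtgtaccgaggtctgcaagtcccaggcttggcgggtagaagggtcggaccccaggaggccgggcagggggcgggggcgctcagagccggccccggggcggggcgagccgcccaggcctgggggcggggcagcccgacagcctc
Kcnj8, chr6:142571615-142571864, minus strand: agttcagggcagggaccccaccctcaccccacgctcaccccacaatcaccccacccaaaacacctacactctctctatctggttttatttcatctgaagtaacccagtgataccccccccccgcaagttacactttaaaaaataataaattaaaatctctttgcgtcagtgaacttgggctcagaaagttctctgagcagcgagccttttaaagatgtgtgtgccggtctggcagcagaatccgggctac

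Each library held between 15692588 and 18967159 gene counts. Mcu itself measured 18.5 ± 0.455 CPM in WAT controls, 11.2 ± 1.21 in WAT AKO, 26.5 ± 2.43 in BAT controls and 10.8 ± 3.34 in BAT AKO (SD, n = 3 each), with no overlap of the genotypes in either depot (adjusted p = 0.0799 in WAT and 0.202 in BAT, edgeR). Levels in CPM are counts scaled to library size with TMM normalisation over the 12 libraries. Some libraries stood apart. The share of skeletal muscle genes was 1.49% for WAT control 1, reached 2.64% for WAT AKO 2, stood at 1.95% for BAT AKO 2 and was at most 0.383% elsewhere, so each result was also computed without the library of each group with most muscle counts. The 16 endothelial genes took 0.339% of counts in WAT control 3 and 0.139% to 0.252% in the other 11 libraries. In bulk tissue, fewer cells of a type and less RNA per cell cannot be told apart.

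Among the contractile genes, Acta2 and Myh11 were readily counted, Lmod1 and Cnn1 were sparse, and Tagln was nearly absent from the table. Acta2, smooth muscle alpha-actin (chromosome 19, 34241090 to 34255590, minus strand), measured 267, 137 and 483 CPM in WAT controls 1 to 3. WAT AKO libraries measured 164, 183 and 156 CPM, inside that span. The spread among WAT controls was the widest of any group for this gene (SD 175 CPM, against 13.7 in WAT AKO). In BAT, Acta2 measured 83.9, 57.7 and 110 CPM in controls and 81.6, 71.1 and 83.3 CPM in AKO, below every WAT library. 

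Myh11, the heavy chain of smooth muscle myosin (chromosome 16, 14194535 to 14291372, minus strand), measured 57.6, 45.9 and 99.6 CPM in WAT controls and 64.6, 44.9 and 56.7 CPM in WAT AKO. BAT controls measured 60.1, 41.9 and 52.7 CPM and BAT AKO 55.2, 62.6 and 76.9 CPM. All 4 groups overlapped, unlike those of Acta2. WAT control 3 was the highest library for both actin and myosin.

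Cnn1, calponin, which binds actin and restrains the myosin motor (chromosome 9, 22099216 to 22109630, plus strand), had 524 counts over all libraries. It measured 1.36, 0.861 and 2.93 CPM in WAT controls, 1.47, 1.89 and 1.15 in WAT AKO, 2.69, 3.03 and 2.41 in BAT controls, and 5.69, 2.87 and 6.49 in BAT AKO. BAT AKO libraries 1 and 3 thus exceeded all 10 other libraries, while BAT AKO 2 fell inside the range of the BAT controls. Lmod1, leiomodin, which nucleates actin filaments (chromosome 1, 135324807 to 135368065, plus strand), measured 11.3, 6.32 and 10.8 CPM in WAT controls and 8.83, 9.22 and 8.03 in WAT AKO. BAT controls measured 8.58, 5.43 and 8.53 CPM, and BAT AKO 7.34, 22.7 and 7.43. The one high Lmod1 value belongs to BAT AKO 2, which held 309 Lmod1 counts and 4156 CPM of Acta1, the actin of skeletal muscle. The part of muscle RNA in that value was not tested.

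Tagln, transgelin or SM22-alpha, an actin-binding protein abundant in smooth muscle (chromosome 9, 45929619 to 45936058, minus strand), had 43 counts in all 12 libraries together, 1 to 9 in each, against 35356 for Acta2. Its level was at most 0.455 CPM, and it did not pass the filter on low counts in any comparison. Of its 1988 annotated exon bases, 1349 (67.9%) are shared with genes on the opposite strand: 1241 with the antisense gene Gm48529 and 108 with Pcsk7. Over the same libraries Gm48529 had 124 counts and Pcsk7, a proprotein convertase gene, 7827. The sources used here give neither a strand setting nor a rule for reads that fall in more than 1 gene, and 639 Tagln exon bases are not shared. No level of transgelin RNA can therefore be read from these counts. For the other 9 genes the shared exon bases were few: 488 for Notch3, 158 for Abcc9, 17 for Mcam and none for the rest.

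**Figure D1:**
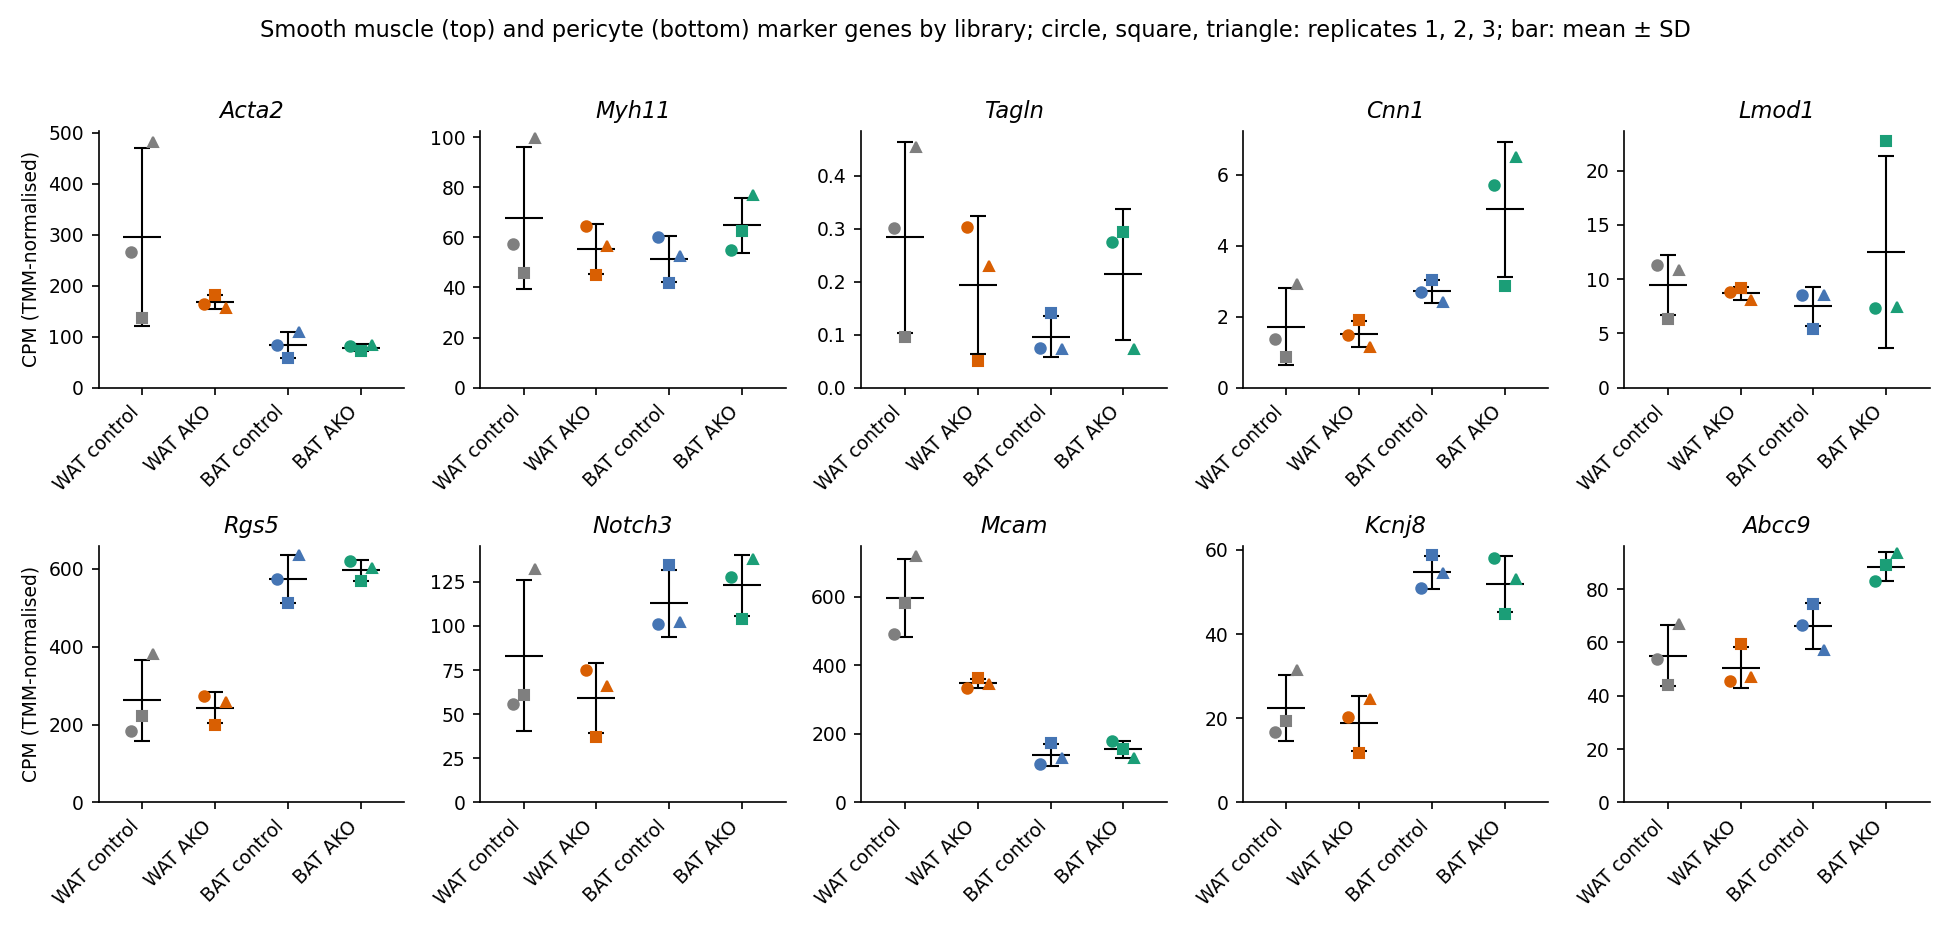
Level of each of the 10 genes in CPM (y axis, starting at 0, scaled per gene) in the 12 libraries, by group (x axis); points are libraries and black bars the mean ± SD. Acta2 and Mcam stand higher in every WAT library than in every BAT library, Rgs5 and Kcnj8 lower, and Lmod1 has a single high point of 22.7 CPM in BAT AKO 2.

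Among the pericyte genes, Rgs5 and Kcnj8 were higher in every BAT library, Mcam in every WAT library, and Abcc9 and Notch3 overlapped between the depots in controls. Rgs5, a regulator of G-protein signalling and a standard pericyte marker (chromosome 1, 169655501 to 169695813, plus strand), measured 184, 222 and 381 CPM in WAT controls and 273, 198 and 259 in WAT AKO. BAT controls measured 574, 513 and 636 CPM and BAT AKO 619, 568 and 601. Every BAT library exceeded every WAT library. Kcnj8, the channel pore Kir6.1 (chromosome 6, 142564837 to 142571614, minus strand), measured 16.7, 19.3 and 31.4 CPM in WAT controls and 20.2, 11.7 and 24.6 in WAT AKO. In BAT it stood at 50.9, 58.7 and 54.4 CPM in controls and 58.0, 44.8 and 53.0 in AKO, again without overlap between depots.

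Abcc9, the sulphonylurea receptor SUR2 that partners Kcnj8 and also a channel subunit in striated muscle, lies 16247 bases from it on the same chromosome (142587862 to 142702315, minus strand). It measured 53.9, 44.1 and 67.0 CPM in WAT controls and 45.4, 59.5 and 47.0 in WAT AKO. BAT controls measured 66.7, 74.4 and 57.2 CPM, and BAT AKO 82.9, 88.9 and 93.5. Unlike Kcnj8, it overlapped between the depots in controls, and all 3 BAT AKO libraries were above all others. Notch3, the Notch receptor of vascular smooth muscle and pericytes (chromosome 17, 32120820 to 32166852, minus strand), measured 55.9, 61.0 and 132 CPM in WAT controls and 75.1, 37.0 and 65.8 in WAT AKO. BAT controls measured 101, 135 and 102 CPM and BAT AKO 127, 104 and 138. WAT control 3 reached BAT levels and the other WAT libraries did not.

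Mcam, the adhesion molecule CD146 (chromosome 9, 44134469 to 44142727, plus strand), is carried by pericytes, smooth muscle and endothelium. It ran the opposite way from Rgs5: 492, 582 and 719 CPM in WAT controls and 335, 363 and 345 in WAT AKO. BAT controls measured 112, 172 and 131 CPM and BAT AKO 178, 157 and 130. WAT controls, WAT AKO and BAT formed 3 tiers with no overlap, and Mcam was the only one of the 10 genes whose WAT groups did not overlap. Of all genes tested, 14.5% had WAT AKO libraries entirely below WAT controls. Depots did not overlap for 61.4% of all genes in controls and 67.5% in AKO.

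Per unit of transcript length, the order of the genes differed by depot. The deposited FPKM values scale each count by gene length and by the library total, without TMM. In WAT controls Mcam (200 ± 43.3 FPKM) and Acta2 (184 ± 109) led and did not differ beyond their spread, Rgs5 followed (64.6 ± 26.4), and Notch3, Myh11 and Kcnj8 lay together at 11.6 ± 5.99, 11.4 ± 4.73 and 9.86 ± 3.54 (SD, n = 3). Abcc9 (7.31 ± 1.44), Lmod1 (2.65 ± 0.661), Cnn1 (0.697 ± 0.441) and Tagln (0.157 ± 0.0995) closed the order. WAT AKO kept Mcam, Acta2 and Rgs5 on top, at 126 ± 2.82, 114 ± 3.87 and 65.2 ± 13.8 FPKM. In BAT controls Rgs5 led with 110 ± 11.6 FPKM, ahead of Acta2 (40.7 ± 12.7) and Mcam (35.8 ± 8.41), which did not differ beyond their spread, then Kcnj8 (18.6 ± 1.54), Notch3 (12.2 ± 2.15), Abcc9 (6.84 ± 0.909) and Myh11 (6.73 ± 1.12). BAT AKO followed the same order except that Mcam (39.5 ± 6.49) and Acta2 (37.7 ± 3.42), still within their spread, changed places.

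Loss of adipose Mcu was compared with control in WAT first. None of the 9 genes tested passed edgeR's quasi-likelihood test at an adjusted p of 0.05, where 0.0189% of all 15915 genes tested did. At an unadjusted p under 0.05 the count was 1 of 9, Mcam, against 22.6% of all genes. All 9 log2 fold changes were below 0, where 49.5% of all genes were, with a median of -0.28 against 0.0049 over all genes. Mcam had a log2 fold change of -0.80 (SE 0.171, 95% interval -1.21 to -0.39, adjusted p = 0.0987 in edgeR), its AKO mean being 58.2% of control and lower in 3 of 3 libraries. Of all genes, 14.5% had AKO libraries entirely below controls. DESeq2 called Mcam (adjusted p = 0.00049) along with 9.79% of its genes, and so did an edgeR fit of all 12 libraries (adjusted p = 0.0363) along with 6.28%. Over all alternatives its adjusted p ran from 0.00049 to 0.32.

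Acta2 was at 56.7% of its control mean in WAT AKO, a size close to that of Mcam, but its interval spanned 0 (log2 -0.84, SE 0.426, 95% interval -1.87 to 0.18, adjusted p = 0.288 in edgeR). Its value was decided by single controls. Without WAT control 2 it passed the test (log2 -1.21, adjusted p = 0.0435 in edgeR), in a fit that called 10.1% of all genes, and without WAT control 3 it was -0.29 (adjusted p = 0.652). The other contractile genes gave -0.31 for Myh11, -0.21 for Cnn1 and -0.14 for Lmod1. The other mural genes gave -0.51 for Notch3, -0.28 for Kcnj8, -0.14 for Abcc9 and -0.13 for Rgs5. The shared sign rested on 1 library: without WAT control 3, the library with most endothelial counts, Myh11 (0.08), Cnn1 (0.42), Rgs5 (0.24), Notch3 (0.0017), Kcnj8 (0.045) and Abcc9 (0.03) turned positive, while Acta2, Lmod1 (-0.03) and Mcam (-0.64) did not.

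In BAT, again 0 of the 9 genes passed the test between AKO and control (0.0771% of 14265 genes did). Abcc9 and Cnn1 were under an unadjusted p of 0.05, 2 of 9 against 13.6% of all genes. The BAT AKO mean of Abcc9 was 88.4 ± 5.33 CPM and its BAT control mean 66.1 ± 8.59 CPM (log2 0.44, SE 0.11, 95% interval 0.18 to 0.70, adjusted p = 0.257 in edgeR), higher in 3 of 3 libraries, a separation that 8.19% of all genes showed. DESeq2 called it (adjusted p = 0.0453), with 2.16% of its genes, and over all alternatives the adjusted p ran from 0.0453 to 0.6. Its channel partner Kcnj8 measured -0.05 (95% interval -0.31 to 0.20) in the same libraries.

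Cnn1 measured 0.90 in BAT (SE 0.307, adjusted p = 0.322 in edgeR) and overlapped between genotypes. Lmod1 measured 0.77, and -0.02 without BAT AKO 2. Myh11 gave 0.35, Mcam 0.19, Notch3 0.14, Rgs5 0.07 and Acta2 -0.07. The 95% interval of Rgs5 was -0.16 to 0.31 and that of Acta2 -0.58 to 0.44. In all, 2 of 9 values were negative, where 48.4% of all genes were.

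**Figure D2:**
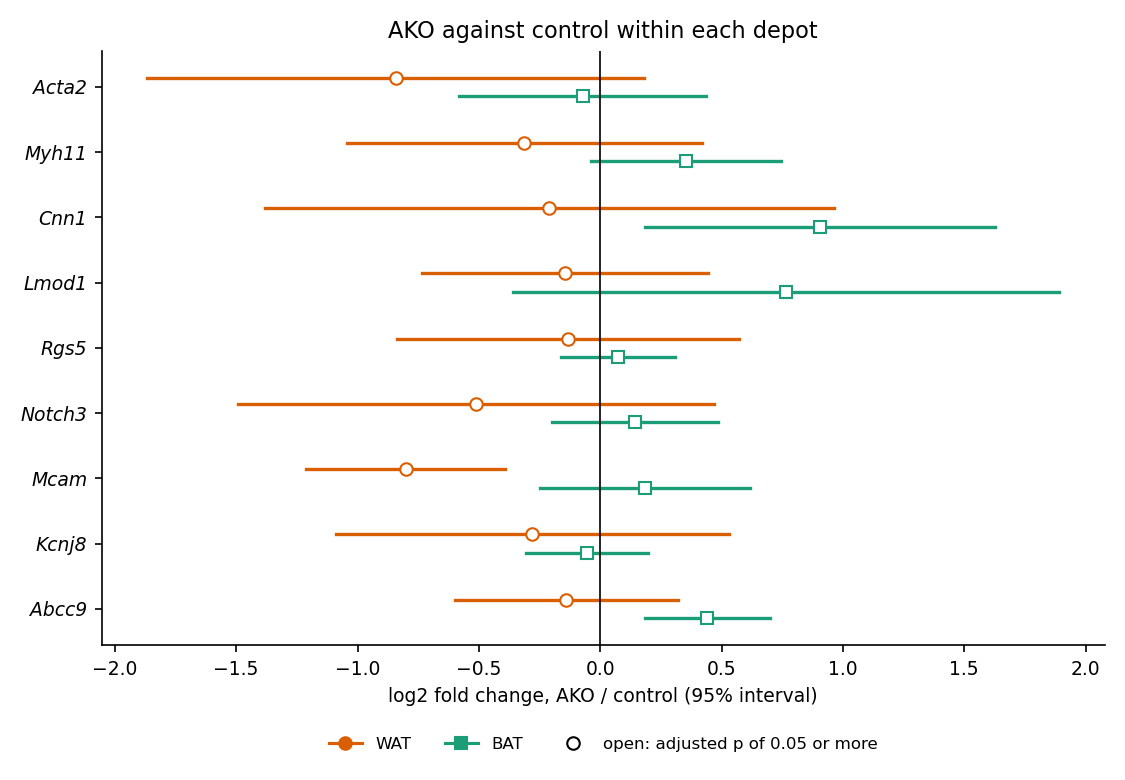
Log2 fold change of AKO over control (x axis) with its 95% interval for the 9 genes tested (y axis), in WAT (circles) and BAT (squares); open symbols have an adjusted p of 0.05 or more. No symbol is filled, the intervals of Mcam in WAT and of Abcc9 and Cnn1 in BAT lie to one side of 0, and the WAT intervals are mostly wider than the BAT ones.

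The difference of the AKO effects between depots was tested as an interaction over all 12 libraries. It passed for 0 of 9 genes, where 0.275% of 16391 genes passed, and 2 of 9 were under an unadjusted p of 0.05, against 18.4%. Mcam had the larger of these, 0.95 on the log2 scale (SE 0.259, 95% interval 0.37 to 1.52, adjusted p = 0.116 in edgeR), the WAT effect being negative and the BAT effect near 0. DESeq2 called it (adjusted p = 0.00784), together with 6.62% of its genes, and over all alternatives the adjusted p ran from 0.00784 to 0.281. Abcc9 measured 0.54 (SE 0.227, adjusted p = 0.237 in edgeR). No gene had a negative difference, where 52.1% of all genes did, yet Rgs5 and Kcnj8 turned negative without WAT control 3 (-0.21 and -0.14).

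The depots differed more than the genotypes. Between the control libraries, 4 of 9 genes passed edgeR's test, against 50.1% of all 15031 genes: Rgs5 and Kcnj8 rose from WAT to BAT (24.4% of all genes did) and Acta2 and Mcam fell (25.7%). Rgs5 was 2.18-fold higher (log2 1.12, SE 0.274, adjusted p = 0.0134) and Kcnj8 2.42-fold higher (log2 1.28, SE 0.233, adjusted p = 0.00414). Acta2 in BAT stood at 28.3% of its WAT mean (log2 -1.83, SE 0.462, adjusted p = 0.0154) and Mcam at 23.15% (log2 -2.12, SE 0.219, adjusted p = 0.000384). These 4 were also the genes whose depots did not overlap, as 61.4% of all genes did not. The remaining 5 tested genes were Notch3 at 0.44, Cnn1 at 0.65, Abcc9 at 0.26, Lmod1 at -0.34 and Myh11 at -0.40, each with an interval spanning 0.

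WAT control 3 decided 2 of the misses. Without it Cnn1 (1.28, adjusted p = 0.0221) and Notch3 (0.94, adjusted p = 0.0057) also passed edgeR's test, which made 6 of 9 where 45.8% of all genes passed. Without BAT control 1 or BAT control 2, Acta2 no longer passed (adjusted p = 0.054 and 0.0575). Without the libraries with most muscle counts only Mcam and Kcnj8 remained, 2 of 9 against 31.3%, Acta2 keeping its size (-1.87, adjusted p = 0.0921) and Rgs5 most of it (0.95, adjusted p = 0.0723).

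Between the AKO libraries, 7 of 9 genes passed, against 59.3% of 15671 genes, and the same 7 did not overlap, against 67.5%. From WAT to BAT 5 rose (28.8% of all genes did): Cnn1 by 1.80 (SE 0.354, adjusted p = 0.00336), Kcnj8 by 1.54 (SE 0.245, adjusted p = 0.00122), Rgs5 by 1.37 (SE 0.137, adjusted p = 0.000123), Notch3 by 1.13 (SE 0.246, adjusted p = 0.00558) and Abcc9 by 0.87 (SE 0.133, adjusted p = 0.000976), all log2 in edgeR. Acta2 and Mcam fell by 1.02 and 1.10 (adjusted p = 0.000226 and 0.000387), with 30.5% of all genes. Both depot comparisons share their libraries with the comparisons of genotype, and the interaction is the test of whether the depot gap differed between genotypes. Myh11 (0.30) and Lmod1 (0.59) did not pass.

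**Figure D3:**
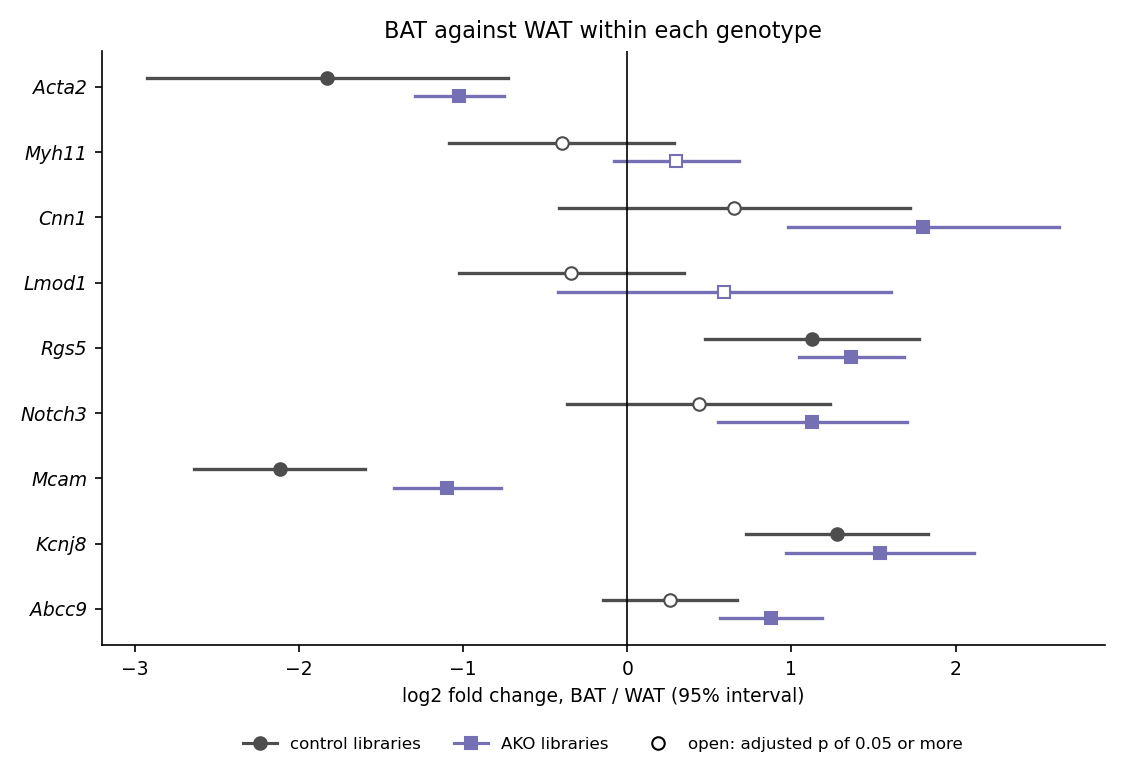
Log2 fold change of BAT over WAT (x axis) with its 95% interval for the 9 genes tested (y axis), in control libraries (circles) and AKO libraries (squares); filled symbols passed edgeR's test. Acta2 and Mcam lie left of 0 and Rgs5 and Kcnj8 right of 0 in both genotypes, while Cnn1, Notch3 and Abcc9 are filled in AKO libraries only; that contrast between genotypes did not pass its own test for any of the 3.

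Scaling matters for the size of these depot differences. TMM factors were 1.05 to 1.26 in WAT and 0.845 to 0.875 in BAT, and on FPKM, which has no such factor, the median of all genes moved from -0.036 to -0.25 in controls and from -0.018 to -0.37 in AKO. There limma's calls were higher in BAT for 26.7% of the genes called in controls and 19.4% in AKO, against 48.7% and 48.5% with edgeR. Acta2, Mcam, Rgs5 and Kcnj8 kept their direction and their call in both genotypes under that scaling, whereas Abcc9 in controls (-0.08) and Myh11 (-0.25) and Lmod1 (-0.10) in AKO changed sign.

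Ratios of 2 genes within a library do not depend on library scaling. The FPKM ratio of Acta2 to Rgs5, smooth muscle actin to pericyte marker, was 3.71, 1.58 and 3.23 in WAT controls and 1.53, 2.35 and 1.54 in WAT AKO. BAT controls gave 0.373, 0.287 and 0.44, and BAT AKO 0.337, 0.32 and 0.353. The depots did not overlap, and the control means differed 7.75-fold. Mcam to Rgs5 was 3.63, 3.56 and 2.56 in WAT controls, 1.67, 2.48 and 1.81 in WAT AKO, and between 0.264 and 0.456 in BAT. Kcnj8 to Rgs5 stayed between 0.105 and 0.204 in all 12 libraries, with overlap in every comparison.

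The 2 channel subunits did not keep one ratio. Kcnj8 to Abcc9 was 1.02, 1.44 and 1.54 in WAT controls and 1.46, 0.647 and 1.72 in WAT AKO, then 2.51, 2.59 and 3.12 in BAT controls and 2.30, 1.66 and 1.86 in BAT AKO. BAT controls were thus above every other library. In each of the 4 groups the lowest ratio was in the library with most skeletal muscle counts, and the part of muscle Abcc9 was not tested. Myh11 to Acta2 was 0.0554 to 0.106 in WAT and 0.129 to 0.248 in BAT. Over the 24 ratio comparisons the smallest exact two-sided permutation p was 0.1, the smallest that 3 against 3 libraries allow, and the smallest adjusted value was 0.24.

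**Figure D4:**
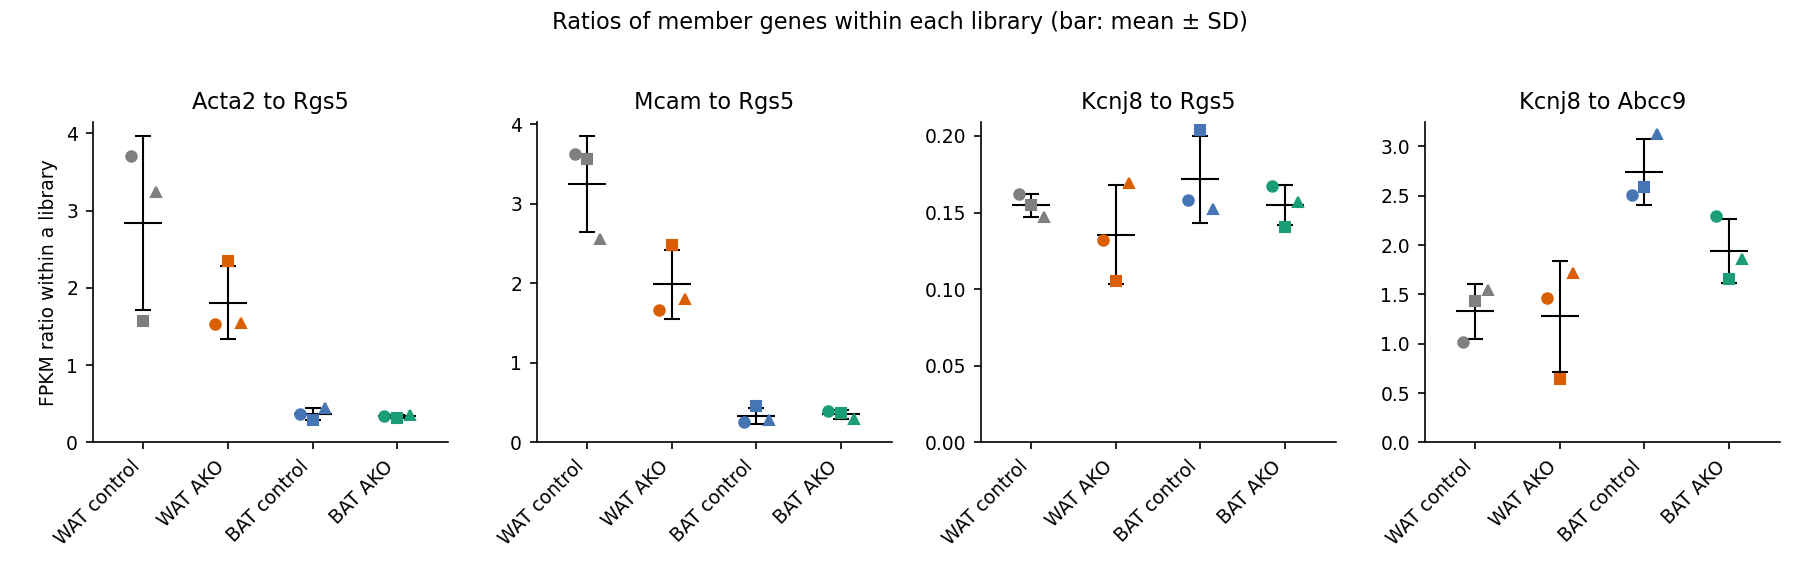
FPKM ratio of 2 genes within a library (y axes, starting at 0) for 4 pairs, by group (x axis); points are libraries, black bars the mean ± SD. Acta2 to Rgs5 and Mcam to Rgs5 separate WAT from BAT, Kcnj8 to Rgs5 stays between 0.105 and 0.204, and Kcnj8 to Abcc9 is highest in the 3 BAT controls.

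Within groups, the genes did not vary as a single block. Deviations of log2(CPM + 0.5) from the group mean were compared over the 12 libraries for the 45 pairs, as a description, since libraries share depth and composition. Notch3 and Kcnj8 varied most alike (Pearson r = 0.92, Spearman rho = 0.916), and r was 0.839 without WAT control 3 and WAT AKO 2, the libraries farthest out for both genes. Rgs5 followed both, with r = 0.836 to Notch3 and 0.821 to Kcnj8 (0.646 and 0.712 without the same libraries). Acta2 and Myh11 gave r = 0.76, which was 0.291 without WAT controls 2 and 3, the farthest out for these genes, and so rests on them. Kcnj8 and Abcc9 gave r = 0.0047. WAT control 3 was above its group mean for all 9 genes, by 0.22 for Lmod1 up to 0.89 for Acta2, and WAT control 2 was below it for all 9. WAT AKO 2 was low for Notch3 (-0.61) and Kcnj8 (-0.60) and high for Abcc9 (0.24). It is the most muscle-rich library of its group, and both genes were also low in those of the other groups. Notch3 and Kcnj8 deviated by -0.45 and -0.37 in WAT control 1, -0.14 and -0.10 in BAT control 1, and -0.23 and -0.20 in BAT AKO 2. Rgs5 was low in WAT control 1 (-0.44) and WAT AKO 2 (-0.28) and near 0 in BAT control 1 (0.0051). The part of muscle RNA in these correlations was not tested.

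**Figure D5:**
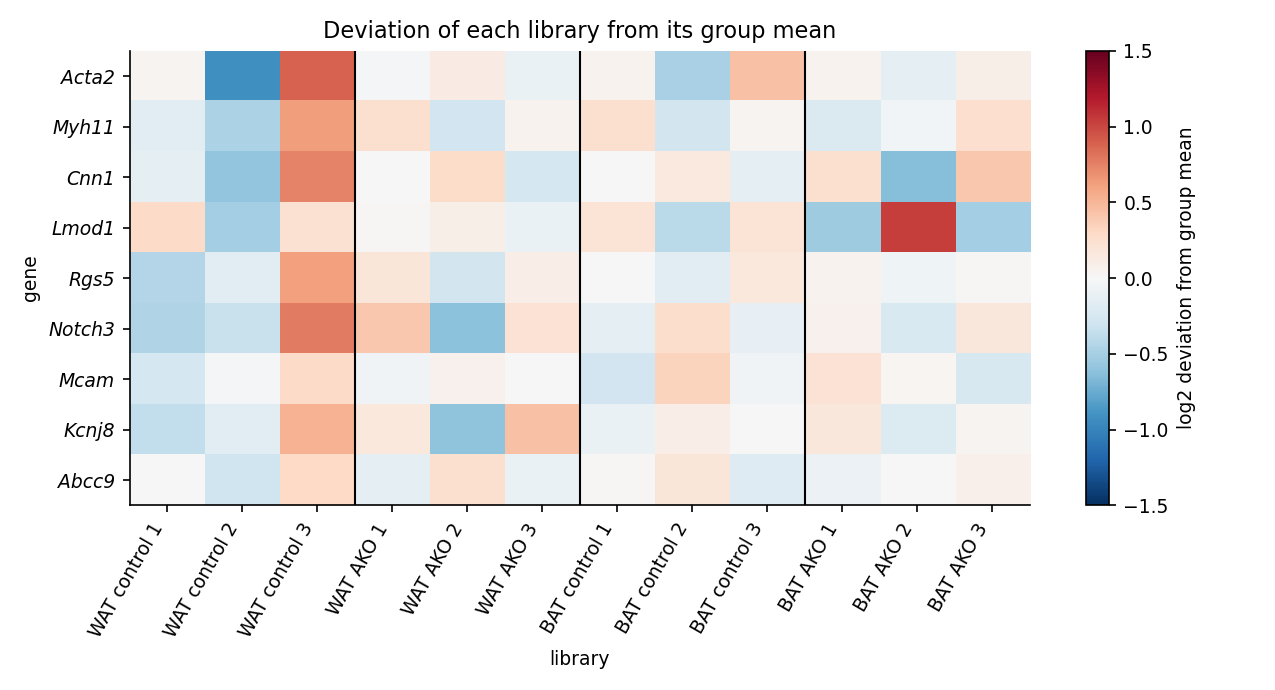
Deviation of log2(CPM + 0.5) from the group mean (colour, red above and blue below) for the 9 genes tested (rows) in the 12 libraries (columns, black lines between groups). WAT control 3 is red throughout, WAT AKO 2 is blue for Notch3 and Kcnj8, and Lmod1 in BAT AKO 2 is the strongest single cell at 1.04.

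Genes whose deviations were most like the mean of the contractile genes, among 12122 protein-coding genes with a mean of at least 2 CPM, were Plod1, a collagen lysyl hydroxylase, Arf1, a GTPase of vesicle traffic, Mical2, an actin-oxidising enzyme that activates Srf signalling, Ccnyl1 and 2310022B05Rik (r = 0.952 to 0.975 over 12 libraries). Without WAT controls 2 and 3 their r was 0.566 to 0.834. With Tagln left out of the mean the 5 nearest genes were Zmiz1, Arf1, Daxx, Tgm2 and Plod1, so 2 of the 5 names stayed. The mural mean was most like Lin54, Arhgap31, a regulator of Rac and Cdc42, Afap1l2, Neurl1b, a ubiquitin ligase that acts on Notch ligands, and Mpzl1 (r = 0.954 to 0.966), and r was 0.891 to 0.944 without WAT controls 1 and 3. All these r are high by selection, being the highest of 12122 genes over 12 libraries. The libraries left out had entered the choice of names, so the lower r are no separate test.

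Other genes listed with the contractile machinery, in controls, fell from WAT to BAT where they passed the test. That list of 24 further genes also holds some that do not encode contractile proteins, Susd5 among them. Of the 24, 23 were tested between the control libraries: 9 fell from WAT to BAT and 0 rose, where 25.7% and 24.4% of all genes did. Their median was -0.84 against -0.036 over all genes. Synpo2, an actin-bundling protein also present in striated muscle, fell by 3.72 (SE 0.301, adjusted p = 0.000142 in edgeR), from 638 ± 65.2 to 48.7 ± 17.4 CPM. Flna, filamin A, fell by 1.30, and Cald1, caldesmon, by 1.23. Csrp1, a LIM protein, fell by 0.74. In AKO libraries 5 rose and 7 fell of 24 (median 0.27), where 28.8% and 30.5% of all genes did. Actn1, alpha-actinin, fell by 1.54 and Susd5 rose by 1.99 from a level near 0.357 CPM. Between AKO and control 0 passed in either depot. The list took 0.599% of counts in WAT AKO 2 and 0.253% to 0.27% in the other WAT AKO libraries, and 0.404% in BAT AKO 2 against 0.122% to 0.123% in the other BAT AKO libraries, the same libraries that were high in skeletal muscle genes. The part of muscle RNA in these values was not tested. In WAT the smallest p values between AKO and control belonged to Synpo2 (-0.76, adjusted p = 0.177 in edgeR), Cald1 (-0.51), Smtn, smoothelin (-0.63), and Flna (-0.27). There 17 of 23 values were negative, where 49.5% of all genes were.

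Of the 13 transcription factors of this lineage, 10 were tested. Between depots in controls Mef2d rose by 0.80, and Mrtfa, a myocardin-family partner of Srf, fell by 0.75, Mef2c by 1.08 and Klf4, which represses contractile genes, by 0.47. Among AKO libraries Srf fell from WAT to BAT by 0.51 (SE 0.152, adjusted p = 0.0222 in edgeR), Mrtfa fell by 1.22 and Mef2d rose by 0.93. None passed between AKO and control. In WAT, Klf4 (-0.64, adjusted p = 0.12), Tbx18 (-0.97, adjusted p = 0.156), Mrtfa (0.68, adjusted p = 0.123) and Mef2c (0.59, adjusted p = 0.138) had the smallest p values, and in BAT Foxs1 (-0.78, adjusted p = 0.28) and Mef2c (1.31, adjusted p = 0.323), which striated muscle also expresses. Myocd and Tcf21 were among those that did not pass the filter on low counts.

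The 22 further pericyte genes moved in both directions between the depots. Between controls, 2 rose from WAT to BAT and 11 fell, where 24.4% and 25.7% of all genes did. Anpep, aminopeptidase N (CD13), fell by 2.24 (SE 0.178, adjusted p = 0.000133 in edgeR), Ednra, an endothelin receptor, by 1.41 and Cygb, cytoglobin, by 1.22. Between AKO libraries 8 rose and 7 fell, where 28.8% and 30.5% of all genes did. Heyl, a Notch target, rose by 1.64 and Cspg4 (NG2) by 0.87, and Steap4 fell by 0.91. In WAT, 19 of 21 values between AKO and control were negative and 0 passed, with Anpep at -1.09 (adjusted p = 0.0705), Ednrb, the other endothelin receptor, at -0.84 (adjusted p = 0.0997), Enpep at -0.47 (adjusted p = 0.109) and Cspg4 at -0.69 (adjusted p = 0.118). BAT had 12 positive and 10 negative values, where 48.4% of all genes were negative, and 0 passed. Gja4, the gap junction protein connexin 37, was at -0.95 (adjusted p = 0.153 in edgeR). The genes with the next smallest p values were positive: Aspn at 0.43, Ednrb at 0.30 and Anpep at 0.41 (adjusted p = 0.273, 0.281 and 0.319 in edgeR). The interaction passed for 1 of 22, where 0.275% of all genes passed. This was Anpep (1.46, adjusted p = 0.0262 in edgeR), which did not pass with the replicate block (adjusted p = 0.0513).

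Notch and growth factor signals to mural cells were tested for all their listed genes. From WAT to BAT, 24.4% of all genes rose and 25.7% fell in controls, and 28.8% rose and 30.5% fell in AKO libraries. Of 15 further Notch genes, 1 rose and 5 fell from WAT to BAT in controls, among them Rbpj by 1.04 (SE 0.0896, adjusted p = 0.000188 in edgeR), Notch2 by 1.05, and the Fringe enzymes Mfng by 2.30 and Lfng by 1.14. In AKO libraries 4 rose and 5 fell, the ligand Jag2 rising by 1.49. Of 16 platelet-derived growth factor, angiopoietin and TGF-beta genes, 3 rose and 3 fell in controls. Pdgfb, the endothelial ligand that retains pericytes, rose by 1.24 (from 53.8 ± 12.4 to 128 ± 9.72 CPM, adjusted p = 0.00123 in edgeR) and Eng, endoglin, by 0.94, while Pdgfra, a fibroblast receptor, fell by 1.66 and Pdgfc by 1.58. In AKO libraries 7 rose and 4 fell, including the angiopoietin receptor Tek by 1.21 and Tie1 by 1.53. None of either list passed between AKO and control. In BAT, 11 of 15 Notch values and 10 of 16 values of the growth factor list were negative, where 48.4% of all genes were. Notch2 (0.39, adjusted p = 0.279 in edgeR) and Angpt1 (0.91, adjusted p = 0.336 in edgeR) were positive there. Notch4 measured -0.47 (adjusted p = 0.225 in edgeR), Hey1 -0.90 (adjusted p = 0.264) and Acvrl1 -0.38 (adjusted p = 0.264). Endothelial cells also express these genes, and 13 of 16 endothelial markers were negative in the same comparison, where 48.4% of all genes were. Their part was not tested.

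Of 13 other channels of vascular tone, 12 were tested between controls: 5 rose and 2 fell, where 24.4% and 25.7% of all genes did. Ano1, a calcium-activated chloride channel, rose by 2.91 (SE 0.373, adjusted p = 0.000961 in edgeR), the ryanodine receptor Ryr2 by 1.39 and the IP3 receptor Itpr1 by 0.74. In AKO libraries 7 of 12 rose and 0 fell, where 28.8% and 30.5% of all genes did, with Ano1 at 3.85, Ryr2 at 3.59, Itpr1 at 1.59 and Abcc8 at 2.66. None passed between AKO and control. Ryr2 measured 6.99 ± 3.03 CPM in WAT controls and 1.80 ± 0.368 in WAT AKO (log2 -1.97, SE 0.407, adjusted p = 0.0945 in edgeR). In BAT, 10 of 11 channel values between AKO and control were positive, where 48.4% of all genes were negative. Ano1 was at 0.62, Itpr1 at 0.55 and Kcnq5 at 1.44 (adjusted p = 0.348, 0.356 and 0.356 in edgeR), and the remaining one, Kcna5, at -0.39. In BAT AKO Kcnq5 measured 3.04 ± 2.35 CPM and Itpr1 147 ± 46.5. BAT AKO 2 held 1.95% skeletal muscle counts, and the part of muscle RNA in these values was not tested.

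Markers of other cells moved alongside some of these results. The 16 endothelial genes took 0.171% to 0.339% of counts in WAT controls, 0.139% to 0.212% in WAT AKO, 0.228% to 0.252% in BAT controls and 0.182% to 0.225% in BAT AKO. All 16 had a negative value between AKO and control in WAT, where 49.5% of all genes did (0 passed, 1 with an unadjusted p under 0.05). The share of 0.339% was that of WAT control 3, and the median share was 0.181% in WAT controls and 0.201% in WAT AKO. These shares carry no TMM factor, and the 16 values were not recomputed without WAT control 3. In BAT 13 of 16 were negative, where 48.4% of all genes were, and 0 passed. There 8 of 16 had an unadjusted p under 0.05, where 13.6% of all genes did. The 12 fibroblast and adipose progenitor genes took 0.637% to 1.20% in WAT controls and 0.495% to 0.586% in WAT AKO, against 0.102% to 0.152% in BAT. All 12 were negative in WAT AKO, where 49.5% of all genes were (0 passed). From WAT to BAT in controls 11 of 12 fell, where 25.7% of all genes did, the same direction as Acta2 and Mcam. Their part in those results was not tested. Mammary myoepithelium, which also carries Acta2 and Myh11, had its keratin markers at or near 0: Krt5 had 0 counts in all 12 libraries, Krt14 1 and Krt17 2. Another of its markers, Trp63, was counted, at 41 to 126 in WAT libraries and 0 to 23 in BAT libraries, and fell from WAT to BAT in controls by 2.86 (adjusted p = 0.00237 in edgeR), the direction of Acta2. Its part in the Acta2 result was not tested. The 14 genes of the mammary list, luminal ones included, took at most 0.0335% in WAT and 0.00121% in BAT. Of that list Oxtr, the oxytocin receptor, averaged 179 CPM in WAT controls and gave a log2 value of -2.65 between AKO and control there (SE 0.587, adjusted p = 0.104 in edgeR). It was the 1 negative value of the 5 genes tested there, and the other 4 were positive. Among these were Epcam at 2.81 (adjusted p = 0.103 in edgeR), from a level near 0.194 CPM, and Trp63 at 0.79 (adjusted p = 0.184 in edgeR). Lymph node stroma took 0.0454% to 0.0458% in WAT controls and 0.0538% to 0.0859% in WAT AKO, and B lymphocyte genes at most 0.0436% and 0.135% in those groups. The WAT libraries with B cell shares of at least 0.0436% were WAT control 2 and all 3 of WAT AKO. Adipocyte genes took 2.64% to 3.14% of counts in WAT and 1.68% to 1.91% in BAT. Cardiac genes took at most 0.000863% and glial genes 0.0206% to 0.0415%.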

How the data were processed

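Polyadenylated RNA was measured in 12 libraries grouped by the sample titles. The authors deposited whole-number counts per Ensembl gene, not normalised, and FPKM values. HTSeq 0.6.0, HISAT2 2.1.0, Bowtie2 2.2.3 and the build mm10 are named, per the submitters' processing notes; the role of each tool, the annotation and any strand setting were not given in the sources used here. TRIzol extraction and a VAHTS Universal V6 library kit are stated, per the labels' protocols. The deposited FPKM equal the count over a gene constant and the library total, within a relative deviation of 9.12e-09 for 11652 genes checked, so they hold no further measurement. Of 52550 gene IDs, 52403 had a symbol in GENCODE M21, which also gave coordinates, and 147 had none.

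Genes were tested on counts with edgeR 4.0.16 (R 4.3.3), TMM normalisation, filterByExpr (minimum count 10, minimum total 15) and the quasi-likelihood F-test, with Benjamini-Hochberg adjustment over all genes tested and a threshold of 0.05, over the 6 libraries of each comparison or, for the interaction, all 12. The same code was tested on simulated data. Totals of 15692588 to 18967159 counts set the precision, and differences within a group exceeded counting error (chi-square per degree of freedom 16.5 to 83.4). Values are mean ± SD, n = 3.

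The genes and the lists were chosen with earlier results of these data known. Named beside the 10 genes are Mcu, up to 4 genes of each list with the smallest p in the comparison described, the 5 genes most like the contractile and the mural mean, and, chosen after their values were seen, Acta1, Pcsk7 and Gm48529. Krt5, Krt14 and Krt17 are named with their counts, and Myocd and Tcf21 as genes that did not pass the filter. Alternatives were RLE size factors, no filter, DESeq2 1.42.0, limma 3.58.1 on log2 of FPKM with a pseudocount of 1, the replicate block, all 12 libraries in 1 fit, each library left out, and omission of the most muscle-rich library per group (BAT AKO 2, BAT control 1, WAT AKO 2 and WAT control 1). These alternatives were reported for the 10 genes, Mcu, Anpep and the counts over all genes, not for the other list genes. Leaving out libraries for the ratios and the pairs of genes, and Tagln for the likeness, was added after seeing the data.

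Same-numbered WAT and BAT libraries deviated together over 16391 genes (r = 0.54, 0.232 and 0.454 in controls, 0.604, 0.701 and 0.18 in AKO). A pairing of depots by number would rest on these correlations, not on the labels, and WAT AKO 3 was more like BAT AKO 1 (r = 0.47) than BAT AKO 3. The highest values, 0.54 in controls and 0.701 in AKO, joined the most muscle-rich libraries of their groups. The part of muscle RNA in them was not tested.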

Additional observations from a re-analysis of the deposited data

Results flagged for a closer look

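Anpep, aminopeptidase N (CD13), a surface enzyme of pericytes, adipose progenitors and some epithelia, responded differently in the 2 depots by the interaction test over all 12 libraries. It measured 77.3, 68.3 and 53.0 CPM in WAT controls, 30.8, 29.1 and 34.8 in WAT AKO, 11.9, 15.2 and 15.2 in BAT controls and 17.5, 19.2 and 18.7 in BAT AKO. AKO libraries were all below controls in WAT and all above them in BAT. The difference of the AKO effects, BAT minus WAT, was 1.46 on the log2 scale (SE 0.206, 95% interval 1.005 to 1.91, adjusted p = 0.0262 in edgeR), among 45 of 16391 genes that passed. Neither effect passed within its depot: WAT gave -1.09 (adjusted p = 0.0705) and BAT gave 0.41 (adjusted p = 0.319). The call was lost with the replicate block (adjusted p = 0.0513), without the libraries with most muscle counts (1.18, adjusted p = 0.195) and without each of WAT AKO 1, WAT AKO 3, BAT control 1, BAT control 3 and BAT AKO 1, 2 and 3 in turn (1.36 to 1.54, adjusted p = 0.0523 to 0.0845).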

How the results depend on the processing

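Between AKO and control, the count of genes passing in WAT went from 0 to 1 with DESeq2 (Mcam), with all 12 libraries in 1 fit (Mcam) and without WAT control 2 (Acta2), a range of 0 to 1 over single libraries left out. In BAT it went from 0 to 1 with DESeq2 (Abcc9) and stayed 0 with any library left out. For the interaction it went from 0 to 1 with DESeq2 (Mcam) and stayed 0 likewise. Between depots it went from 4 to 2 in controls without the libraries with most muscle counts and ranged from 3 to 6 over single libraries left out, and in AKO it ranged from 6 to 7 over all settings, Notch3 missing (0.54) on FPKM. Mcu, the targeted gene, was lower in AKO under every setting and passed in some (WAT adjusted p from 0.000558 to 0.313, BAT from 1.51e-05 to 0.552). The range over single libraries left out in WAT was -0.55 to 0.080 for Myh11, -0.55 to 0.42 for Cnn1, -0.34 to 0.24 for Rgs5, -0.74 to 0.0017 for Notch3, -0.52 to 0.045 for Kcnj8 and -0.30 to 0.030 for Abcc9. In BAT it was -0.28 to 0.18 for Acta2, -0.019 to 1.04 for Lmod1, -0.0053 to 0.16 for Rgs5 and -0.14 to 0.027 for Kcnj8. Between depots in AKO, Lmod1 ranged from -0.16 to 0.87, and for the interaction Rgs5 ranged from -0.21 to 0.41 and Kcnj8 from -0.14 to 0.42. On log2 FPKM with limma the sign changed in WAT for Lmod1 (0.019), Rgs5 (0.064) and Abcc9 (0.0043), between depots for Abcc9 in controls (-0.076) and for Myh11 (-0.25) and Lmod1 (-0.10) in AKO, and for the interaction of Rgs5 (-0.030). Lmod1 between depots in AKO was -0.10 without the libraries with most muscle counts. The cause was not tested, except that FPKM carries no TMM factor.

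The fit with the replicate block, pairing same-numbered libraries, changed no call among the 9 genes (0 in WAT, 0 in BAT, 4 and 7 between depots, 0 for the interaction). Over all genes it moved the calls from 3 to 0 in WAT, from 11 to 1 in BAT and from 45 to 30 for the interaction, and without the filter on low counts WAT had 277. Between AKO and control the numbers did not pair the libraries: r was -0.502, -0.0552 and 0.21 in WAT and -0.645, -0.312 and 0.156 in BAT, and not every library was most like its own number.

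With 3 libraries a group the intervals in WAT are wide (Acta2, -1.87 to 0.18). Cnn1 had 524 counts and Tagln 43 over the 12 libraries, and no statement on Tagln is possible.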
